A study of Homo sapiens with 6 samples.

Results

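The NF-kB genes described here are a set of 40: subunits of the transcription factor NF-kB, proteins that restrain it, and known target genes that encode cytokines, chemokines, survival proteins and secreted defence proteins. The subunit REL is not in the set and is read with the other pathway genes. They were listed by name, with earlier results of these data known, and matched by gene symbol, and all 40 were found among the 17448 genes listed. Of these, 37 passed the filter on low counts and were among the 12951 genes tested. CXCL2, CXCL3 and ICAM1 did not pass and are given as levels.

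RNA-seq of poly(A)-selected RNA was performed on HCC2814 cells, an established human lung squamous cell carcinoma (LUSC) line. WT cells (n = 3 samples) received a non-targeting control guide RNA and MLST8-KO cells (n = 3 samples) a CRISPR guide against MLST8, both followed by antibiotic selection. MLST8 is a subunit of the kinase complexes mTORC1 and mTORC2. According to the study, its loss in this line impaired signalling by mTORC2 but not by mTORC1. The study numbers its control and MLST8-KO cells of this line from 1 to 3, as the samples are numbered, but the sources used here do not say whether the numbers stand for separate guides, clones or cultures. The p-values therefore measure only the spread between these samples, which may be technical. The comparison asks which NF-kB genes differed in level between MLST8-KO and WT cells.

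NF-kB is a family of dimers that wait in the cytoplasm, bound by IkB proteins. When receptors for TNF, interleukin-1 or bacterial products are engaged, IkB kinase marks the IkB proteins for destruction, and the freed dimers enter the nucleus and switch on genes for inflammatory mediators and survival proteins. Some of those genes encode the inhibitors themselves, such as IkB-alpha and A20, which close a negative feedback loop, and in squamous epithelia NF-kB drives much of the cytokine output.

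The sequences that NF-kB dimers recognise, kB sites, are shown first because they are what many of these genes share in their DNA. RefSeq promoter windows (GRCh38.p14, from 250 bases before to 50 after a transcription start) were at hand for 33 of the 40 genes, 52 windows in all, and were searched on both strands for the 9-letter pattern GGANNTTCC and for the kB consensus. The former was in 40.4% of the windows of these genes and in 4.56% of all 35116 windows. The kB consensus was in 44.2% of their windows and 11.3% of all windows. The patterns can overlap, and 17 of the 52 windows held both. Either pattern was present in 24 of the 33 genes.

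In the stretches that follow, written 5′ to 3′ on the strand of the gene, capitals mark the match and lower case its flanks. CXCL1, CXCL2 and CXCL3, which encode near-identical chemokines that attract neutrophils, are shown for their shared site and flanks. CXCL8, a neighbouring gene for another neutrophil attractant, is shown because its 9-letter match has the same letters as theirs, without the outer G and C, in different flanks. The stretches lie at chr4:73869294-73869344 (plus strand), chr4:74099243-74099293 (minus), chr4:74038738-74038788 (minus) and chr4:73740458-73740506 (plus).
CXCL1: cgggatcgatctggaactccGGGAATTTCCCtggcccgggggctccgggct
CXCL2: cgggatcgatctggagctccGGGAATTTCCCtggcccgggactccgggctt
CXCL3: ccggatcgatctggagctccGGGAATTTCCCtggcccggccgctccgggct
CXCL8: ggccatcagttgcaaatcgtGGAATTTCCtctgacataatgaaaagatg

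The next 6 stretches are from genes that changed in opposite directions in MLST8-KO cells: TNFAIP3, LCN2, IL32 and CSF2 were lower, and IL6 and CXCL10 were higher. They lie at chr6:137867172-137867233 (plus), chr9:128149258-128149307 (plus), chr16:3065284-3065363 (plus), chr5:132073667-132073715 (plus), chr7:22727107-22727156 (plus) and chr4:76023590-76023694 (minus).
TNFAIP3: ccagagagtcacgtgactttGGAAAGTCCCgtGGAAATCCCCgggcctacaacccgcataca
LCN2: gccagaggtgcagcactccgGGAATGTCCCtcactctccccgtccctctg
IL32: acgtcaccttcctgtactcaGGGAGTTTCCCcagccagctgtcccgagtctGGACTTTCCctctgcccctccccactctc
CSF2: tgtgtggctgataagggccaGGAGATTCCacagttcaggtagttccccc
IL6: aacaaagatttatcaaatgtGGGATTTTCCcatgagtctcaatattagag
CXCL10: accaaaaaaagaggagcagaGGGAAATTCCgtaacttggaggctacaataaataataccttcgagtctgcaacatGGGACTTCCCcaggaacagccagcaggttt

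Matches were found in genes of every outcome. Either pattern was in 8 of the 13 genes with a window that were lower in MLST8-KO cells, in 3 of the 3 that were higher, in 10 of the 14 that did not pass the test and in the 3 that were not tested. The lower genes without a match were RELA, SOD2, IL1A, IL1B and IL1RN, which says only that these letters were absent from the bases searched.

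**Figure D1:**
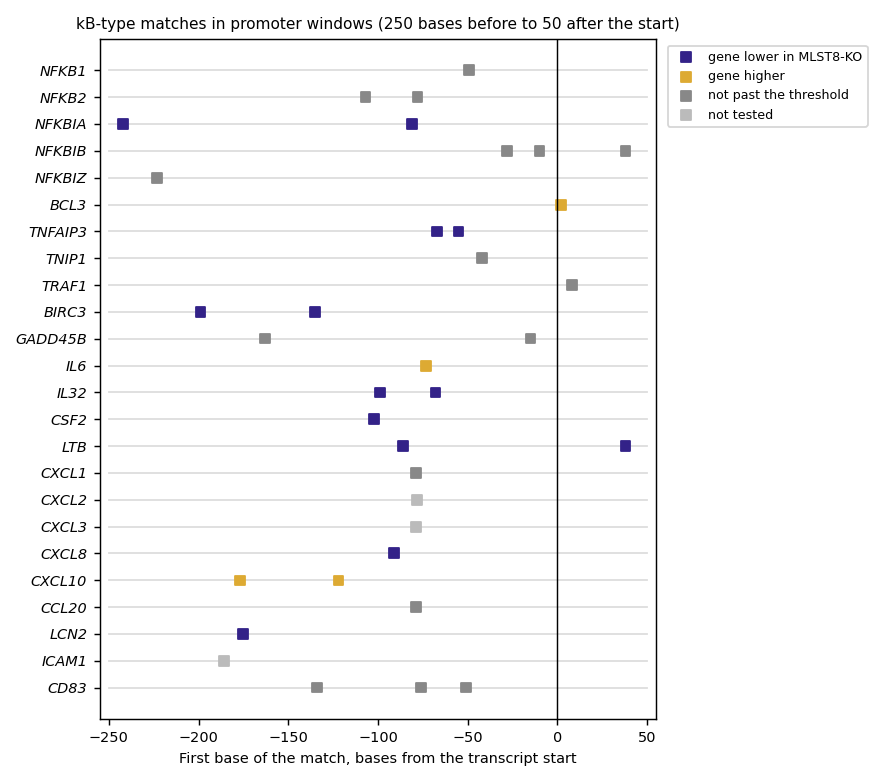
Position of each match to either kB-type pattern, by gene; the horizontal axis is the distance in bases of the first base of the match from the transcription start, and colour marks the outcome of the gene in MLST8-KO cells. Matches of CXCL1, CXCL2 and CXCL3 lie at -79, -78 and -79, and genes that were lower, higher and not past the threshold all have matches.

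Estimated counts summed to between 14381673 and 15744154 per sample, and a count of 3, the most that a count of 0 allows, corresponded to 0.191 to 0.209 counts scaled to library size (CPM), counting error only. Tests used edgeR's quasi-likelihood method with Benjamini-Hochberg (BH) adjustment over the 12951 genes, and a differentially expressed gene (DEG) had an adjusted p under 0.05. Levels are given in TPM, which is scaled by gene length and can be compared between genes, and fold changes come from the counts after TMM scaling, which also gives CPM. Per-sample values are listed in the order of the replicate numbers. Gene coordinates are on GRCh38 (GENCODE 29). MLST8 itself (chr16:2204248-2209416) was at 63.5, 61.4 and 62.9 TPM in WT and at 30.04, 47.3 and 27.97 TPM in MLST8-KO samples. The transcript fell by 0.96 on the log2 scale (SE 0.15, adjusted p = 0.00339 by edgeR), and MLST8-KO replicate 2 kept more of the transcript than the other MLST8-KO samples. MLST8-KO replicate 1 stood apart in another way: transcripts of liver summed to 275 TPM there and to between 0.55 and 6.34 TPM in the other samples. The squamous markers TP63, SOX2, KRT5, KRT14, KRT6A, DSG3 and PKP1 were higher in MLST8-KO cells, 7 of the 9 listed. Of these, SOX2, KRT14 and PKP1 stayed DEGs without any 1 sample, while KRT5 and KRT6A stayed so in 2 of the 6 such fits, TP63 in 3 and DSG3 in 4. The 9 summed to 15457, 12355 and 10178 TPM in WT samples and to between 19223 and 21322 TPM in MLST8-KO samples. Of 6 immune cell markers, 4 were listed, and their sum of 46.4 to 80.4 TPM across the samples was mostly that of CD68. CD68, the only immune marker tested, was lower in MLST8-KO cells (log2 fold change -0.45, adjusted p = 0.0413 by edgeR), a call kept in 2 of the 6 fits without 1 sample, while PTPRC and CD14 reached at most 0.03 and 0.36 TPM. Of 5 fibroblast markers, 1 was tested, COL1A1, and did not pass (log2 fold change 0.03), and the others were under 2 TPM, LUM being above every WT sample in each MLST8-KO sample. Of 3 endothelial markers, PECAM1 was lower (-1.34, kept in 2 of the 6 fits) and the 3 summed to 0.47 to 1.11 TPM. In bulk RNA, fewer cells of a type and less RNA per cell cannot be told apart, and the part of any of these differences in the results that follow was not tested.

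Among the 37 NF-kB genes in the test, 14 (37.8%) were lower DEGs, where 15.7% of all genes tested were, and 4 (10.8%) were higher DEGs, where 16.3% of all were. The remaining 19 did not pass the test. The lower DEGs were RELA, NFKBIA, TNFAIP3, BIRC3, IER3, SOD2, IL1A, IL1B, IL1RN, IL32, CSF2, LTB, CXCL8 and LCN2, and the higher DEGs were BCL3, IL6, CXCL10 and C3. The median log2 fold change was -0.34 over the 37 genes and 0.0045 over all genes tested. In CPM, 16 of the 37 were below every WT sample in every MLST8-KO sample (24.2% of all genes tested were) and 3 were above every WT sample (24.8% of all). In TPM the groups overlapped for BIRC3 and IL1RN among the 14 lower DEGs and for none of the 4 higher. The count of lower DEGs rested in part on MLST8-KO replicate 1: without it, 9 of the 14 were still DEGs, namely TNFAIP3, SOD2, IL1A, IL1B, IL32, CSF2, LTB, CXCL8 and LCN2. Over all genes, lower DEGs went from 2030 to 850 without that sample. The count of higher NF-kB DEGs was 1 without MLST8-KO replicate 1 and 2 without WT replicate 2 or MLST8-KO replicate 2, and CXCL10 was a DEG each time. Over all genes, higher DEGs went from 2116 to 979, 971 and 1136 in these 3 fits.

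Of 17 cytokines, chemokines and innate proteins tested, 8 were lower DEGs (47.1%) and 3 higher (17.6%), beside 15.7% and 16.3% of all genes. Their median log2 fold change was -0.50. Most are secreted, but LTB is membrane-bound and IL32 is partly intracellular. Of the 11 subunits, IkB proteins and feedback inhibitors, 3 were lower (27.3%) and 1 higher (9.09%), with a median of -0.14. The difference between these groups was not tested.

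**Figure D2:**
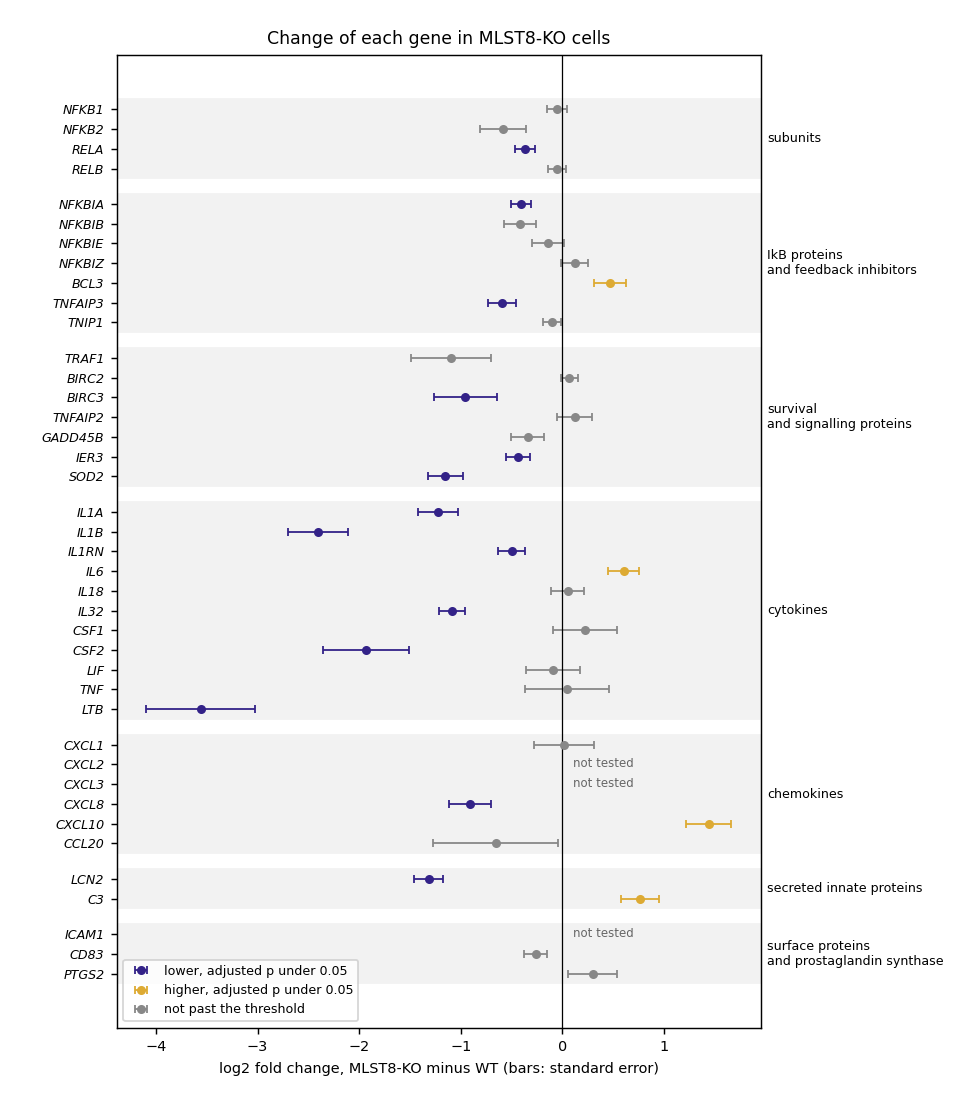
Log2 fold change of each NF-kB gene in MLST8-KO relative to WT cells, with the standard error as bars, grouped by role; colour marks genes past the threshold. The values run from -3.56 for LTB to 1.44 for CXCL10, and the 4 subunits in the set lie between -0.59 and -0.05.

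Among the subunits, RELA was the only DEG. RELA encodes p65, the subunit with the main activation domain, and was at 97.9, 108 and 113 TPM in WT and at 78.3, 90.4 and 92.7 TPM in MLST8-KO samples. Every MLST8-KO sample was below every WT sample, but by a modest margin (log2 fold change -0.37, SE 0.10, adjusted p = 0.0182 by edgeR). The call was lost without WT replicate 2 (-0.38, adjusted p = 0.0637), MLST8-KO replicate 1 (-0.30, adjusted p = 0.0843) or MLST8-KO replicate 2 (-0.38, adjusted p = 0.0586). NFKB2 encodes p100, the precursor of p52 in the non-canonical pathway. It was at 15.8, 21.5 and 32.8 TPM in WT and at 15.97, 18.01 and 16.2 TPM in MLST8-KO samples. The groups overlapped because WT replicate 1 lay with the MLST8-KO samples, and the log2 fold change of -0.59 (SE 0.23) did not pass (adjusted p = 0.0687 by edgeR). Without WT replicate 1 it was -0.82 (adjusted p = 0.00116), and NFKB2 also passed in DESeq2 (adjusted p = 0.0154). NFKB1, which encodes p105 and p50, and RELB, the partner of p52, had log2 fold changes of -0.05 each (adjusted p = 0.695 and 0.669), with overlapping groups.

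Among the inhibitors, the classical feedback genes NFKBIA and TNFAIP3 fell. NFKBIA encodes IkB-alpha, which takes NF-kB out of the nucleus again, and was at 263, 278 and 320 TPM in WT and 219, 240 and 239 TPM in MLST8-KO samples. The groups did not overlap (log2 fold change -0.41, SE 0.10, adjusted p = 0.0126 by edgeR), but the call was lost without MLST8-KO replicate 1 (-0.37, adjusted p = 0.0611). RELA fell as well, and the ratio of NFKBIA to RELA in TPM was 2.68, 2.58 and 2.83 in WT and 2.80, 2.65 and 2.58 in MLST8-KO samples, with overlapping groups. TNFAIP3 encodes A20, an enzyme that edits ubiquitin chains to switch off signalling, and its promoter stretch with 2 matches is shown above. It was at 27.9, 36.4 and 37.2 TPM in WT and 20.2, 27.1 and 25.5 TPM in MLST8-KO samples. MLST8-KO replicate 2 came close to WT replicate 1 without overlap (log2 fold change -0.59, SE 0.14, adjusted p = 0.0107 by edgeR), and the call held without any 1 sample (-0.72 to -0.48).

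BCL3, an atypical IkB protein that sits in the nucleus and works with p50 and p52 dimers, moved the other way. It was at 26.2, 20.5 and 16.3 TPM in WT and 26.8, 33.2 and 33.3 TPM in MLST8-KO samples. WT replicate 1 almost met MLST8-KO replicate 1, and in CPM the groups overlapped (log2 fold change 0.47, SE 0.16, adjusted p = 0.0460 by edgeR). Of the 6 fits without 1 sample, only the one without WT replicate 1 kept the call (the others gave 0.32 to 0.56 and adjusted p = 0.0580 to 0.146). NFKBIB, which encodes IkB-beta, did not pass (log2 fold change -0.42, SE 0.16, adjusted p = 0.0702 by edgeR), though it did without WT replicate 1 (-0.51, adjusted p = 0.0203) and in DESeq2 (adjusted p = 0.0437). NFKBIE, NFKBIZ and TNIP1, which encode IkB-epsilon, the atypical IkB-zeta and the A20 partner ABIN1, had log2 fold changes of -0.14, 0.12 and -0.10 and overlapping groups.

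Among genes for survival and signalling proteins, SOD2 had the highest level in WT cells of all 40 and fell most within its group. It encodes the mitochondrial superoxide dismutase and was at 392, 608 and 836 TPM in WT and 246, 264 and 228 TPM in MLST8-KO samples. All MLST8-KO samples were below all WT samples, which themselves spread widely (log2 fold change -1.15, SE 0.17, adjusted p = 0.00300 by edgeR). SOD2 (chr6:159679119-159762529) shares exonic sequence with WTAP and ACAT2 on the other strand and SOD2-OT1 on its own, and the use of strand in counting is not stated. WTAP, for comparison, had 2554, 2947 and 2939 counts in WT and 1865, 2099 and 1945 in MLST8-KO samples. ACAT2 had 841, 927 and 1109 counts in WT and 1074, 1069 and 951 in MLST8-KO samples, with overlapping groups. The same limit holds for RELA, NFKBIB, TNFAIP3, IER3, IL6, LIF and ICAM1, whose exons overlap genes on the other strand. IER3, an early-response gene that limits apoptosis, was at 309, 339.5 and 329 TPM in WT and 212, 276 and 289 TPM in MLST8-KO samples. It was lower in every MLST8-KO sample (log2 fold change -0.44, SE 0.12, adjusted p = 0.0179 by edgeR), but lost the call without WT replicate 2 (-0.42), MLST8-KO replicate 1 (-0.32) or MLST8-KO replicate 2 (-0.46), with adjusted p = 0.0692, 0.0624 and 0.0545.

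BIRC3 and TRAF1, which encode a pair of proteins recruited to TNF receptors, were both scarce. BIRC3, or cIAP2, a ubiquitin ligase that blocks cell death, had 28, 50 and 62 counts in WT and 26, 29 and 24 counts in MLST8-KO samples. Its log2 fold change of -0.95 (SE 0.31) passed (adjusted p = 0.0406 by edgeR), but WT replicate 1 lay close to the MLST8-KO samples and in TPM the groups overlapped. Only the fit without WT replicate 1 kept the call, and the other 5 gave adjusted p = 0.0942 to 0.134 (log2 fold change -1.01 to -0.66). TRAF1, an adaptor, had 31, 70 and 78 counts in WT and 19, 47 and 26 in MLST8-KO samples, overlapping groups that did not pass (log2 fold change -1.09, SE 0.39, adjusted p = 0.0560 by edgeR). It passed without WT replicate 1 (-1.43, adjusted p = 0.00247) or MLST8-KO replicate 2 (-1.52, adjusted p = 0.0499), and in DESeq2 (adjusted p = 0.0194). BIRC2, the close relative of BIRC3 at the same locus on chromosome 11, had a log2 fold change of 0.07, and TNFAIP2 one of 0.12. GADD45B, a stress-response gene, had -0.34 (adjusted p = 0.128) and passed only without WT replicate 1 (-0.48, adjusted p = 0.0205).

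The interleukin-1 genes, a cluster on chromosome 2, fell together but by unequal amounts. IL1B (chr2:112829751-112836903) encodes interleukin-1 beta, an inflammatory cytokine stored as a precursor, and was at 29.9, 56.6 and 71.6 TPM in WT and 9.40, 9.63 and 13.2 TPM in MLST8-KO samples. The highest MLST8-KO sample was below the lowest WT sample, and the level was 5.29-fold lower (log2 fold change -2.40, SE 0.30, adjusted p = 0.00281 by edgeR). IL1A (chr2:112773915-112784590), whose product signals through the same receptor and acts as an alarm signal from damaged epithelium, was at 15.4, 22.2 and 26.6 TPM in WT and 8.15, 11.7 and 9.81 TPM in MLST8-KO samples. It too did not overlap (log2 fold change -1.23, SE 0.20, adjusted p = 0.00369 by edgeR). IL1RN (chr2:113107214-113134016) encodes the receptor antagonist that blocks both, and was at 52.6, 42.3 and 39.2 TPM in WT and 30.4, 41.1 and 31.3 TPM in MLST8-KO samples. In TPM, MLST8-KO replicate 2 overlapped the WT range, and the log2 fold change of -0.50 (SE 0.13, adjusted p = 0.0181 by edgeR) lost its call without MLST8-KO replicate 1 (-0.42, adjusted p = 0.0816) or MLST8-KO replicate 3 (-0.46, adjusted p = 0.0677).

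The ratios among the 3 transcripts were compared sample by sample, with no test. The ratio of IL1B to IL1RN in TPM was 0.569, 1.34 and 1.82 in WT and 0.310, 0.234 and 0.421 in MLST8-KO samples. The ratio of IL1B to IL1A was 1.94, 2.55 and 2.69 in WT and 1.15, 0.824 and 1.34 in MLST8-KO samples. Neither ratio overlapped between the groups, whereas that of IL1A to IL1RN did (0.293, 0.524 and 0.679 in WT, 0.268, 0.284 and 0.313 in MLST8-KO samples).

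IL32, CSF2 and LTB also fell by more than 1 log2 unit. IL32 (chr16:3065297-3082192), which encodes an intracellular and secreted inducer of other cytokines, was at 37.2, 42.9 and 44.8 TPM in WT and 20.6, 24.4 and 18.6 TPM in MLST8-KO samples. The replicates of each group lay close together (log2 fold change -1.09, SE 0.13, adjusted p = 0.00281 by edgeR). CSF2 (chr5:132073790-132076170) encodes GM-CSF, a growth factor for myeloid cells, and had only 27, 24 and 44 counts in WT and 5, 15 and 7 in MLST8-KO samples. It was lower in every MLST8-KO sample (log2 fold change -1.93, SE 0.42, adjusted p = 0.00901 by edgeR), though few reads stand behind it. LTB (chr6:31580525-31582522) encodes lymphotoxin beta, a membrane-bound ligand of the TNF family, and its gene lies beside TNF on chromosome 6. It had 30, 60 and 96 counts in WT and 5, 3 and 9 in MLST8-KO samples, the largest fold of the 37 genes (11.8-fold lower, log2 fold change -3.56, SE 0.54, adjusted p = 0.00334 by edgeR). The MLST8-KO levels of LTB were near the count that 0 allows, so the size of the fold is uncertain although the groups were far apart. The calls of IL1B, IL1A, IL32, CSF2 and LTB held without any 1 sample.

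IL6 was the only cytokine gene that rose. Its product drives the acute-phase response, and it was at 11.4, 10.1 and 11.4 TPM in WT and 17.6, 19.97 and 15.2 TPM in MLST8-KO samples. Every MLST8-KO sample was above every WT sample (log2 fold change 0.60, SE 0.15, adjusted p = 0.0145 by edgeR), while the call was lost without WT replicate 2 (0.53, adjusted p = 0.0685), MLST8-KO replicate 1 (0.59, adjusted p = 0.0559) or MLST8-KO replicate 2 (0.53, adjusted p = 0.0572). TNF, the classical NF-kB cytokine, had 12, 25 and 12 counts in WT and 10, 20 and 25 in MLST8-KO samples, and no difference was detectable at this depth (log2 fold change 0.04, SE 0.41). IL18, whose precursor epithelia hold in store, was at 57.0, 37.2 and 37.7 TPM in WT and 48.0, 57.4 and 41.9 TPM in MLST8-KO samples, fully overlapping. CSF1, the macrophage growth factor M-CSF, and LIF, a cytokine of the IL-6 family, had log2 fold changes of 0.22 (SE 0.32) and -0.09 (SE 0.26), also with overlapping groups.

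**Figure D3:**
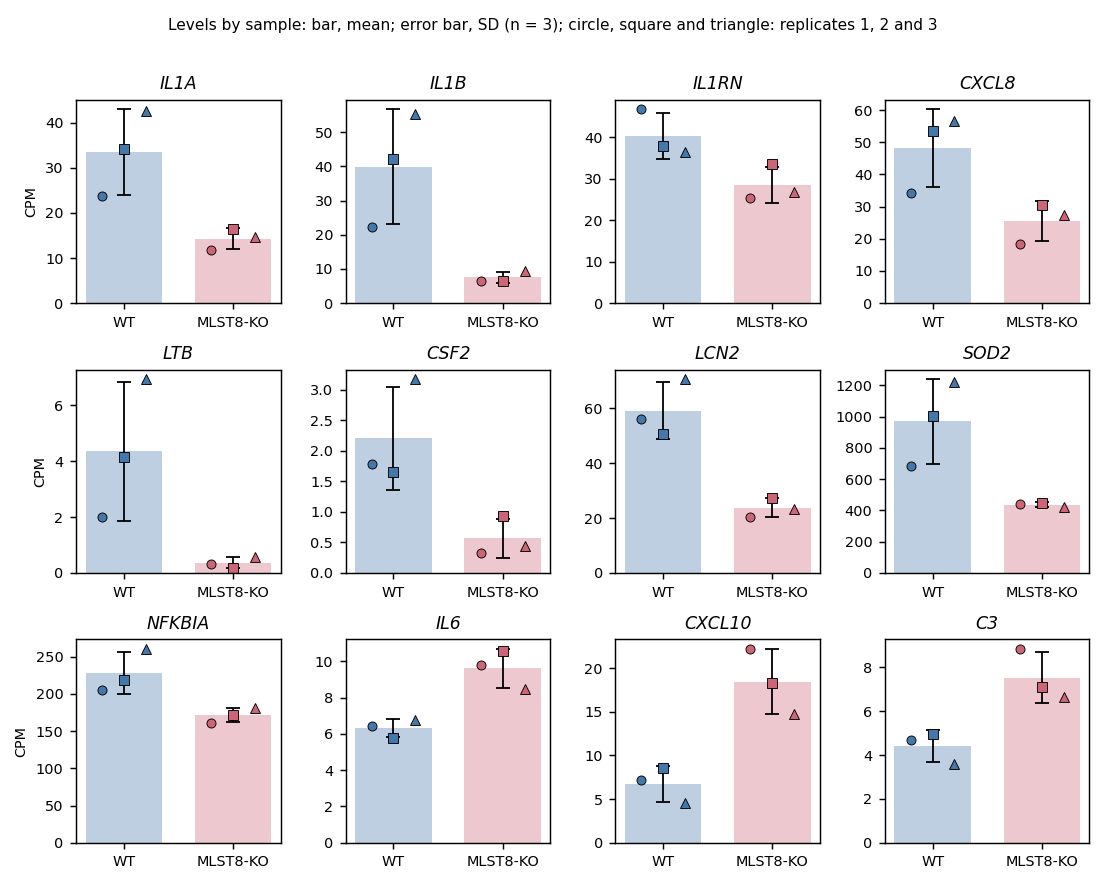
Levels in CPM after TMM scaling of selected NF-kB genes in each sample; bars are means, error bars SD (n = 3) and the circle, square and triangle are replicates 1, 2 and 3. IL1B and LTB separate the groups widely, and CXCL10 lies above every WT sample in every MLST8-KO sample.

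Chemokine genes changed in opposite directions. CXCL8 (chr4:73740506-73743716), the attractant of neutrophils also called interleukin-8, was the most abundant of the 6 in WT cells, at 40.02, 62.2 and 63.3 TPM, and was at 22.9, 39.5 and 33.1 TPM in MLST8-KO samples. MLST8-KO replicate 2 lay just under WT replicate 1, without overlap (log2 fold change -0.91, SE 0.21, adjusted p = 0.0104 by edgeR). CXCL10 (chr4:76021117-76023497), which attracts T cells through CXCR3 and is also a target of interferon, was at 12.3, 14.6 and 7.43 TPM in WT and 40, 34.2 and 26.1 TPM in MLST8-KO samples. Its lowest MLST8-KO sample was well above its highest WT sample (log2 fold change 1.44, SE 0.22, adjusted p = 0.00339 by edgeR), or 2.71-fold higher. Both calls held without any 1 sample (-1.11 to -0.73 for CXCL8, 1.22 to 1.64 for CXCL10). CXCL10 was the most abundant of the 6 in MLST8-KO replicate 1, and CXCL8 in the other 5 samples.

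The remaining chemokines were scarce. CXCL1 had 15 to 24 counts in WT and 19 to 22 in MLST8-KO samples (log2 fold change 0.02, SE 0.29), CXCL2 had 5 to 8 and 2 to 7, and CXCL3 had 4 to 19 and 5 to 10. Reads of these near-identical genes can be split among them, so they were also summed, which gave 25, 32 and 51 counts in WT and 26, 35 and 34 in MLST8-KO samples, with overlapping groups. CCL20, which attracts dendritic cells and T cells through CCR6, had 4, 17 and 18 counts in WT and 6, 17 and 4 in MLST8-KO samples, and no difference was detectable (log2 fold change -0.66, SE 0.62, adjusted p = 0.432 by edgeR). CXCL8, at 22.9 TPM or more, was far above its neighbour CXCL1, at 2.96 TPM or less, in every sample.

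The 2 secreted innate proteins moved apart. LCN2 (chr9:128149071-128153455), which encodes lipocalin 2, a protein that binds bacterial iron carriers, was the most abundant transcript for a secreted protein among the 40 genes. It was at 149, 132 and 178 TPM in WT and 56.7, 78.9 and 63.3 TPM in MLST8-KO samples. The groups were far apart (log2 fold change -1.32, SE 0.14, adjusted p = 0.00281 by edgeR) and the call held without any 1 sample. C3, the central complement protein, was at 1.69, 1.80 and 1.26 TPM in WT and 3.43, 2.81 and 2.48 TPM in MLST8-KO samples, above every WT sample in each. C3 is also a transcript of liver, and MLST8-KO replicate 1, with the liver transcripts, was its highest sample. The log2 fold change was 0.76 (SE 0.18, adjusted p = 0.0130 by edgeR) and without that sample 0.63 (adjusted p = 0.0625), in the same direction but no longer past the threshold.

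Surface and enzyme genes did not change by the test. CD83, a surface glycoprotein of activated antigen-presenting cells, was below every WT sample in CPM in each MLST8-KO sample, by little (log2 fold change -0.26, SE 0.12, adjusted p = 0.102 by edgeR). PTGS2, the inducible cyclooxygenase COX-2, was at 2.74 to 3.27 TPM in WT and 3.01, 5.88 and 2.93 TPM in MLST8-KO samples, so that MLST8-KO replicate 2 alone stood high (log2 fold change 0.30, SE 0.24). ICAM1, the adhesion molecule for leukocytes, had the lowest mean TPM of the 40 genes in both groups, with 9, 10 and 13 counts in WT and 8, 9 and 5 counts in MLST8-KO samples.

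**Figure D4:**
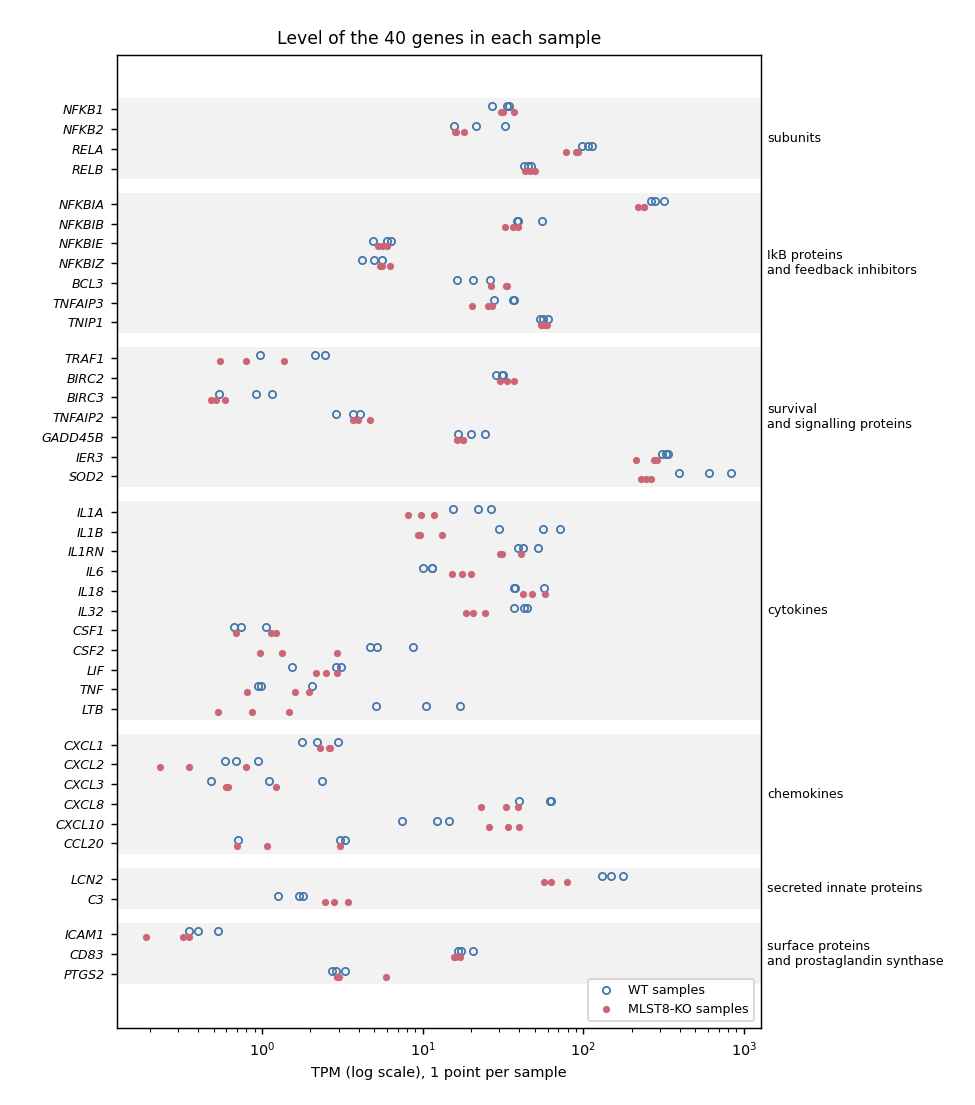
Level of each of the 40 NF-kB genes in TPM on a log scale, with 1 point per sample, open for WT and filled for MLST8-KO, grouped by role. The genes span from below 1 TPM for ICAM1 and CXCL2 to over 200 TPM for SOD2, IER3 and NFKBIA.

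In sum over genes, the 19 cytokines, chemokines and innate proteins had 424, 449 and 521 TPM in WT and 267, 336 and 269 TPM in MLST8-KO samples. The 11 subunits and inhibitors had 610, 652 and 718 TPM in WT and 533, 597 and 597 TPM in MLST8-KO samples, a narrower gap. Such sums weigh abundant genes most. In the first sum LCN2 had a mean of 153 TPM in WT and 66.3 TPM in MLST8-KO samples. In the second NFKBIA had 287 and 233 TPM. Of the 14 lower DEGs, WT replicate 1 was the WT sample nearest to the MLST8-KO samples for 11 (78.6%), as it was for 78.2% of all 2030 lower DEGs. MLST8-KO replicate 1 was the farthest MLST8-KO sample for 9 of the 14, and for 909 of all 2030. WT replicate 1 was also the WT sample with the highest sum of squamous markers, and the part of this in the results was not tested.

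**Figure D5:**
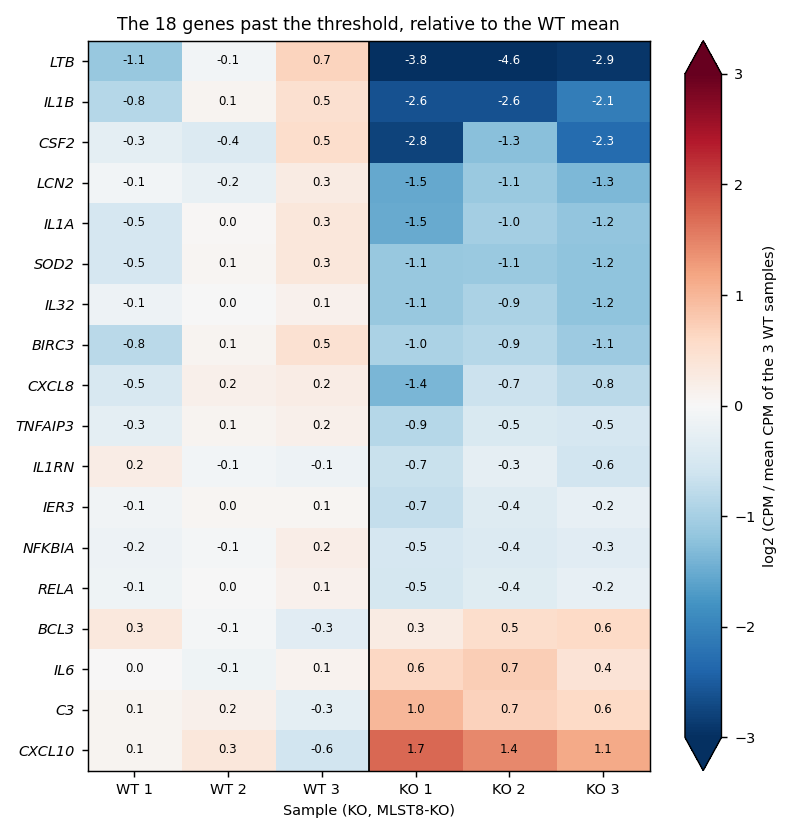
Colour map of log2 (CPM / mean CPM of the 3 WT samples) for the 18 NF-kB genes past the threshold, with 1 column per sample. The 14 lower genes are below the WT mean in every MLST8-KO sample, and the 4 higher genes are above it.

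Other genes of the pathway were read from a list of 103, of which 97 were listed and 80 tested. Lower DEGs numbered 22 of the 80 (27.5%) and higher DEGs 11 (13.8%), beside the 15.7% and 16.3% of all genes given above, and the median log2 fold change was -0.07. Without MLST8-KO replicate 1 the counts were 10 and 5, and without WT replicate 2 they were 13 and 4. Without MLST8-KO replicate 2, 6 were higher. Over all genes, the lower and higher DEGs were 2030 and 2116 with every sample. They were 850 and 979 without MLST8-KO replicate 1 and 1044 and 971 without WT replicate 2. Without MLST8-KO replicate 2, 1136 of all genes were higher.

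The kinases that free NF-kB were not among the DEGs: CHUK, IKBKB and IKBKG, the IkB kinase subunits, had log2 fold changes of -0.01, 0.26 and 0.19 (adjusted p = 0.953, 0.0958 and 0.119 by edgeR). IKBKB did pass without WT replicate 1 (adjusted p = 0.0418 by edgeR). IKBKG was above every WT sample in each MLST8-KO sample, as were 24.8% of all genes tested in CPM. Of 37 adaptors, ubiquitin enzymes and kinases tested, 7 were lower (18.9%) and 4 higher (10.8%), beside 15.7% and 16.3% of all genes. Their median log2 fold change was -0.06. This group also held the subunit REL (log2 fold change -0.02) and the IkB protein NFKBID (-0.09), neither of them a DEG. RBCK1, or HOIL-1, of the ligase complex that builds linear ubiquitin chains, fell most, from 219, 267 and 358 TPM in WT to 106, 120 and 134 TPM in MLST8-KO samples (log2 fold change -1.26, SE 0.17, adjusted p = 0.00281 by edgeR). IRAK2, a kinase of interleukin-1 receptors, fell as well (-0.85, adjusted p = 0.00660). RNF31 and SHARPIN, of the same ligase complex as RBCK1, did not fall. RNF31 was higher (0.33, adjusted p = 0.0274 by edgeR), a call kept in 2 of the 6 fits without 1 sample. SHARPIN did not pass (0.18, adjusted p = 0.341 by edgeR). TRAF5, an adaptor of TNF-family receptors, rose (0.64, adjusted p = 0.00983), as did TRADD (0.57, adjusted p = 0.0123) and TAB1 (0.45, adjusted p = 0.0240). TRADD lost its call without WT replicate 2 (0.56, adjusted p = 0.0545) or MLST8-KO replicate 1 (0.47, adjusted p = 0.0598), and TAB1 without WT replicate 2 (0.35) or any 1 MLST8-KO sample (0.42 to 0.49).

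Of 11 upstream receptors tested, 4 were lower (36.4%) and 1 was higher (9.09%), beside 15.7% and 16.3% of all genes. TLR5, the receptor for flagellin, fell in all 3 MLST8-KO samples (log2 fold change -0.68, SE 0.14, adjusted p = 0.00687 by edgeR), and TNFRSF11A, or RANK, was higher (0.75, SE 0.21, adjusted p = 0.0216). The latter held only without WT replicate 1 or MLST8-KO replicate 2, and was 0.69 to 0.73 without each of the other 4 samples. The other lower receptors were TLR2 (-0.65), LTBR (-0.46), the receptor of lymphotoxin, and TNFRSF12A (-0.46). LTBR and TNFRSF12A were not DEGs without MLST8-KO replicate 1 or 2, nor was TLR2 without these or WT replicate 2 or 3 (-0.74 to -0.54). Of the receptors of the secreted proteins, IL6R fell (-0.90, adjusted p = 0.00468) and LIFR rose (0.47, adjusted p = 0.0245), the latter not without WT replicate 2 (0.53), MLST8-KO replicate 1 (0.44) or MLST8-KO replicate 2 (0.36). Receptors of the CXCL8 and CSF2 proteins (CXCR1, CXCR2, CSF2RA and CSF2RB) had at most 4 counts in any sample and were not tested.

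Among 29 further known targets tested, 10 were lower (34.5%) and 5 higher (17.2%), beside 15.7% and 16.3% of all genes. Their median log2 fold change was 0.11, opposite in sign to the balance of the counts. IL24, a cytokine of the IL-10 family, had the steepest fall (log2 fold change -2.88, SE 0.46, adjusted p = 0.00346 by edgeR), followed by the acute-phase gene SAA2 (-2.10, adjusted p = 0.00281). IL24 had 24.2, 51.2 and 41.7 counts in WT and 4, 9.84 and 3 in MLST8-KO samples. The latter are near the count that 0 allows, so the size of its fold is uncertain. SAA1 fell too (-0.88, adjusted p = 0.00652), but SAA1 and SAA2 are near-identical and reads can be split between them. PI3, the elastase inhibitor elafin, was at 775, 903 and 624 TPM in WT and 394, 466 and 365 TPM in MLST8-KO samples (-1.02, adjusted p = 0.00281). PLAU, or urokinase, had a log2 fold change of -0.91 (adjusted p = 0.00283). SERPINA3, another acute-phase gene, had -1.27 (adjusted p = 0.0218) and was not a DEG without WT replicate 3 (-1.02), MLST8-KO replicate 1 (-1.11) or MLST8-KO replicate 3 (-1.16). It was scarce, with 27, 19 and 34 counts in WT and 9, 17 and 10 in MLST8-KO samples.

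In the other direction were the collagenases MMP13 (log2 fold change 1.17, adjusted p = 0.00736 by edgeR) and MMP1 (0.76, adjusted p = 0.0107), the latter missing the threshold without MLST8-KO replicate 2 (0.66, adjusted p = 0.0517). CCL5, a chemokine that like CXCL10 attracts T cells, was at 141, 99.8 and 87.3 TPM in WT and 197, 187 and 186 TPM in MLST8-KO samples, above every WT sample in each (0.69, SE 0.14, adjusted p = 0.00678). IRF1, a transcription factor of the interferon response, rose (0.43, adjusted p = 0.0140) but not without WT replicate 2 (0.42) or MLST8-KO replicate 1 (0.41). EFNA1, an ephrin, rose (0.35, adjusted p = 0.0196) but not without WT replicate 2 (0.34), MLST8-KO replicate 2 (0.35) or MLST8-KO replicate 3 (0.30).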

How the data were processed

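Poly(A)-selected RNA of 3 WT and 3 MLST8-KO samples of HCC2814 cells was sequenced on the DNBSEQ platform. After removal of poor reads and adapters, reads were aligned by the authors to GRCh38.p12 (HISAT) and to reference genes (Bowtie2). Estimated counts per gene were deposited without normalisation, of which 12.4% were not whole and were rounded here. The TPM values were deposited by the authors, scaled by gene length and to the same total in each sample. A table of the authors' own fold changes and p-values was not used. The use of strand in counting and the tool versions are not given in the sources used here. Symbols turned into dates (25, none among the 40 genes) were restored.

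Counts were tested with edgeR 4.0.16 in R 4.3.3 (TMM, filterByExpr, glmQLFit and glmQLFTest, no pairing), with Benjamini-Hochberg adjustment over 12951 genes and a threshold of 0.05. Standard errors were taken from the log2 fold change and its F statistic (|log2 fold change| / sqrt(F)). Replicates differed by more than sampling noise (chi-square per gene 6.78 to 26.3). Each result was recomputed with DESeq2 1.42.0, with limma 3.58.1 on TPM (log2, pseudocount 1 or 0.1), with 2 other scalings, other filters or a replicate block, and without each sample in turn. Gene coordinates are those of GENCODE 29 (GRCh38) and promoters those of RefSeq. The 40 genes, the pathway and marker lists and their grouping were chosen with earlier results of these data known. All 40 genes are named, with MLST8 and up to 10 pathway genes per direction, those past the threshold with the largest log2 fold change, and markers that bear on a result. The IkB kinase subunits, RNF31, SHARPIN, REL, NFKBID, 3 of the lower receptors and the receptors at low counts were named after their values were seen. Figures used matplotlib 3.10.9.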

Additional observations from a re-analysis of the deposited data

How the results depend on the processing

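Of 12951 genes, 2116 were higher and 2030 lower by edgeR, and of the NF-kB genes 4 and 14. DESeq2's size factors and upper quartile scaling in edgeR gave 4 and 14 NF-kB genes again, the same ones, and DESeq2 gave 4 and 17. In that order, these fits called 2088, 2546 and 1932 of all genes higher, and 2071, 1559 and 2007 lower. Upper quartile scaling moved the share of higher genes among all DEGs from 51.0% to 62.0%, and limma on log2(TPM + 1) and log2(TPM + 0.1) to 71.0% and 70.9%. The limma fits called 1134 and 1132 genes lower, 14 and 13 pathway genes lower, and 12 NF-kB genes lower, without BIRC3 and IL1RN. They shifted the median of all genes by 0.0877 and 0.0996 (log2), and turned the uncalled NFKB1 to 0.065 and 0.067, RELB to 0.0448 and 0.0457, TNIP1 to 0.0033 and 0.0034 and LIF to 0.034 and 0.061. CSF2 and LTB were not tested with at least 10 counts in every sample.

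Leaving out 1 sample at a time gave 971 to 2692 higher and 850 to 2651 lower genes, 1 to 4 higher and 9 to 18 lower NF-kB genes, and 4 to 16 higher and 10 to 27 lower pathway genes. Uncalled genes changed sign: NFKB1 (-0.14 to 0.0077), TNFAIP2 (-0.0099 to 0.25), IL18 (-0.064 to 0.27), LIF (-0.36 to 0.11), TNF (-0.25 to 0.48), CXCL1 (-0.15 to 0.25) and PTGS2 (-0.084 to 0.46).

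With the replicate number as a block, 3 NF-kB genes were higher and 17 lower, and 2261 and 2157 of all genes; BCL3 was lost (adjusted p = 0.0563) and NFKB2, NFKBIB and TRAF1 were gained. Same-numbered samples correlated in their deviations from the group means at 0.105, 0.0565 and 0.14, and pairs with different numbers at -0.117 to 0.0203. Each sample thus correlated best, though weakly, with its own number, a hint from the data and not the design. Whether same-numbered samples were handled together is not stated in the sources used here. Depth limits the scarce genes: LTB, CSF2, TNF, CCL20, BIRC3, TRAF1, CSF1, LIF, ICAM1 and CXCL1 to CXCL3 had under 100 counts in every sample. Of the pathway DEGs named, IL24, SERPINA3, TLR2 and TNFRSF11A did too.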
